A study of Mus musculus with 7 samples.

Results

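The genes described here are 4 of the 54347 in the deposited table: Atp1b1, Atp1b2 and Atp1b3, which encode the beta 1, beta 2 and beta 3 subunits of the sodium pump, and Fxyd5, which encodes a regulator of it. They were chosen by family membership and by measured values, since Atp1b1 and Atp1b2 had been seen to be lower in every knockout library. The difference between the genotypes is therefore given for these genes as a description, and no test of it is offered as support. The libraries hold RNA of LT-HSCs (long-term haematopoietic stem cells), which can rebuild the whole blood system for life, from the marrow of female mice of the line C57BL/6N-EMCN em1(IMPC)Wtsi /WtsiH. The 4 WT libraries came from Emcn+/+ mice (wt_284, wt_290, wt_310 and wt_312) and the 3 KO libraries from their Emcn-/- littermates (ko_306, ko_314 and ko_320), 1 mouse per library and with no treatment named. The cells were sorted by flow cytometry after lineage depletion, using Ter119, CD3e, B220, CD11b and Gr-1 antibodies to mark mature cells. The gene deleted, Emcn, is that of endomucin, a mucin on the surface of LT-HSCs and endothelium. No label restricts the deletion to a tissue, and neither the age of the mice nor the exons removed are stated in the sources used here.

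The sodium pump (Na,K-ATPase) moves sodium out of the cell and potassium into it at the cost of ATP. A catalytic alpha subunit carries the ions and splits ATP. A glycosylated beta subunit folds the alpha subunit, brings it to the cell surface and can join neighbouring cells through its outer part, and a small FXYD protein tunes the rate of the pump. Blood cells mostly use the beta 3 isoform, whereas beta 2 is best known from the nervous system and beta 1 from epithelia, heart and kidney.

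All 4 genes lie on the minus strand in GRCm38 (GENCODE M21) and are protein-coding. Atp1b1 (ENSMUSG00000026576.12) runs from 164437109 to 164458355 on chromosome 1, and Atp1b2 (ENSMUSG00000041329.13) from 69599736 to 69605942 on chromosome 11. Atp1b3 (ENSMUSG00000032412.8) runs from 96332655 to 96364442 on chromosome 9, and Fxyd5 (ENSMUSG00000009687.14) from 31032722 to 31042481 on chromosome 7. No pseudogene of the 4 is named after them in that annotation. Atp1b1 overlaps Nme7 on the opposite strand, and no source used here states whether the counting used strand. Nme7 held 110 to 162 counts in WT and 125 to 203 in KO libraries, so its groups overlapped where those of Atp1b1 did not.

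The start regions of Atp1b1 and Atp1b3 are shown because these genes encode the same kind of subunit and differed in their pattern across the libraries. Each sequence is from RefSeq (GRCm38.p6), minus strand, 5′ to 3′, from 250 bases before to 50 bases after the annotated start, with matches to the GC box letters GGGCGG (on either strand) in capitals. Atp1b1 is chr1:164458306-164458605, and Atp1b3 is chr9:96364382-96364681, the one of 2 listed starts that lies nearer to the GENCODE gene end.
Atp1b1: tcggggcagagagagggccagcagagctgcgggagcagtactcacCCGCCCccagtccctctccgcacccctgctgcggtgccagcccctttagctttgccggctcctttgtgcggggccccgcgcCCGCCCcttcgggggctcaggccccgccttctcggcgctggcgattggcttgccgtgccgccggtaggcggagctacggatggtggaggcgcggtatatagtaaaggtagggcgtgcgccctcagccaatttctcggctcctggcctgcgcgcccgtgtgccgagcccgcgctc
Atp1b3: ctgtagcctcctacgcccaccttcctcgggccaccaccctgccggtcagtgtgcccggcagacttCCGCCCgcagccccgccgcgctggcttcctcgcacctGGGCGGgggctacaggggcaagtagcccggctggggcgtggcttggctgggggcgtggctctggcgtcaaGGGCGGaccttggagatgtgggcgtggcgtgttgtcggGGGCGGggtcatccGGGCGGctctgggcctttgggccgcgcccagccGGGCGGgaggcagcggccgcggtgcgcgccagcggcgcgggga

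Both start regions are rich in GC and in CpG. The Atp1b1 region was 71.0% GC with 31 CpG dinucleotides, more than 89.4% of the 32851 promoters of this length held. The Atp1b3 region was 76.0% GC with 34 CpG, more than in 92.3% of promoters. The GC box matched 2 times in Atp1b1 and 6 times in Atp1b3, and 35.7% of all promoters held at least 1 match. The letters CCAAT (either strand), a common promoter element, matched 2 times in Atp1b1 and 0 times in Atp1b3, against 37.4% of all promoters with a match. The letters TATAAA (13.6% of promoters), CACGTG (7.15%) and AGATAA (11.2%) matched in neither region. The other listed start of Atp1b3, which is not shown, had 0 GC box matches and 1 match to CACGTG, so these counts depend on the start taken.

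Library totals ran from 6444134 to 11101774 estimated counts, and levels are given as CPM, the counts of a gene relative to its library's total, after TMM scaling of the libraries to each other. Emcn held 130 to 327 counts in the WT libraries and 1, 0 and 0 in KO, which fits the labels. The LT-HSC identity was checked with 15 markers. All 15 had counts, and their summed level ranged from 2035 to 3416 CPM for WT and from 3079 to 3344 CPM for KO, led by the receptor gene Kit and the transcription factor genes Meis1 and Hlf. wt_284 held the lowest of these sums and stood apart by its transcripts of mature cells, as described with the results below. All 9 pairs of libraries of 1 genotype differed beyond sampling noise (chi-square divided by its degrees of freedom 16.8 or more), so none was treated as a repeat of another.

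Atp1b3 and Fxyd5 were the abundant genes of the 4 and had similar levels in both genotypes, while Atp1b1 and Atp1b2 were scarce in WT and close to the detection limit in KO. Per kilobase of exon, the mean over the 7 libraries was 26.6 CPM for Fxyd5, 19.2 for Atp1b3, 1.66 for Atp1b1 and 0.970 for Atp1b2. By unscaled mean CPM, 88.9% of the tested genes lay below Fxyd5, 71.0% below Atp1b3 and 24.0% below Atp1b1, with Atp1b2 lower still. In that order Fxyd5 and Atp1b3 changed places in wt_310 (21.2 and 23.1 CPM per kilobase), and so did Atp1b1 and Atp1b2 (1.69 and 1.83). The order of the means was the same with the length of the longest coding transcript in place of all exons.

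**Figure D1:**
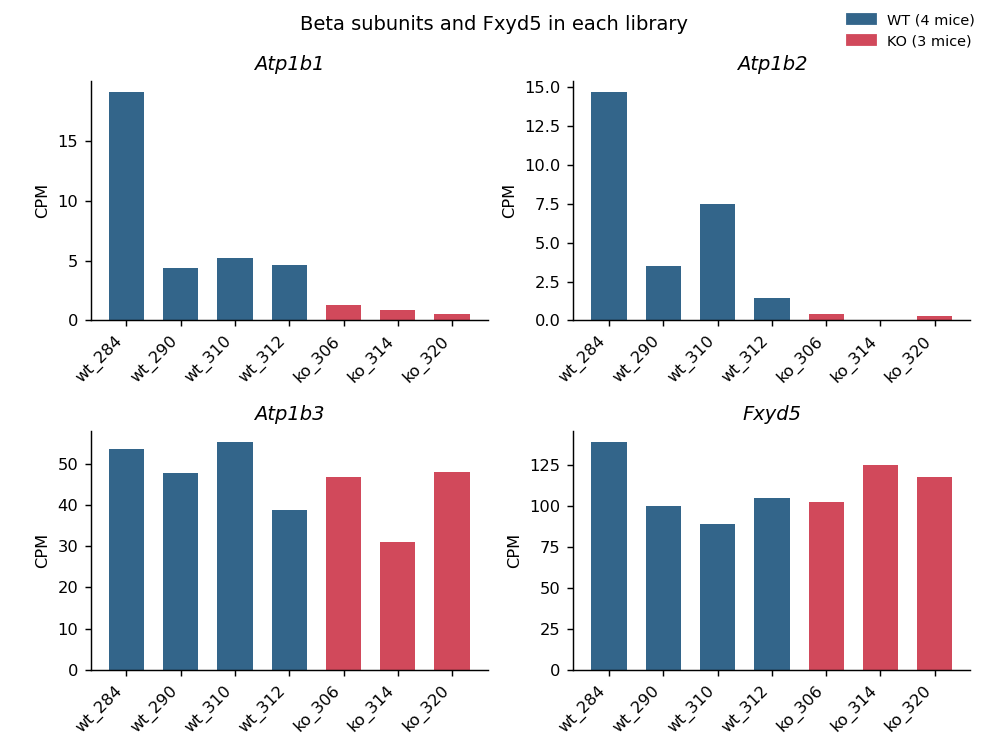
Level of Atp1b1, Atp1b2, Atp1b3 and Fxyd5 in each library (bars from 0, CPM, a scale of its own in each panel; WT blue, KO red, 1 mouse per bar). The KO bars of Atp1b1 (0.509 to 1.29 CPM) and Atp1b2 (0 to 0.430 CPM) lie below every WT bar. Those of Fxyd5 lie among the WT bars, as do those of Atp1b3 except ko_314 (31.0 CPM), which is the lowest bar of that panel.

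Atp1b1, the subunit of the most widely distributed pump, held 157, 46, 34 and 36 counts in wt_284, wt_290, wt_310 and wt_312, and 15, 6 and 4 counts in ko_306, ko_314 and ko_320. As levels these were 19.0, 4.34, 5.20 and 4.62 CPM in WT and 1.29, 0.895 and 0.509 CPM in KO. wt_284 was high, at 3.66 times the next WT library. The other 3 WT libraries lay close together, at 4.72 ± 0.434 CPM (SD, n = 3), and above all KO libraries. The mean of the WT libraries was 8.30 ± 7.16 CPM (SD, n = 4), that of the KO libraries 0.899 ± 0.391 CPM (SD, n = 3), a ratio of 9.23, or 5.25 without wt_284. The lowest WT library was 3.36 times the highest KO library. The fitted log2 fold change was -3.17 ± 0.77 (SE), and -2.36 ± 0.89 (SE) without wt_284.

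Atp1b2, also known as an adhesion molecule of glial cells, had a more graded pattern in WT. It held 121, 37, 49 and 11 counts in wt_284, wt_290, wt_310 and wt_312, and 5, 0 and 2 counts in ko_306, ko_314 and ko_320. The levels were 14.7, 3.49, 7.49 and 1.41 CPM in WT and 0.430, 0 and 0.255 CPM in KO. The WT libraries spanned a range of 10.4 times, and wt_312, the lowest of them, stood at 3.28 times the highest KO library. A count of 0 in ko_314 allows up to 0.447 CPM, which covers the level seen in ko_306, so no order among the KO libraries can be read. Exact Poisson 95% intervals, which cover counting error only, ran from 0.705 to 2.53 CPM in wt_312 and from 0.140 to 1.00 CPM in ko_306 and thus overlapped. For Atp1b1 the same libraries gave 3.24 to 6.4 CPM and 0.723 to 2.13 CPM, which did not. The fitted log2 fold change of Atp1b2 was -4.70 ± 1.09 (SE), and -4.00 ± 1.23 (SE) without wt_284, and the ratio of the means was 29.6, or 18.1 without wt_284.

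Atp1b3, the usual beta subunit of blood cells, had 53.5, 47.8, 55.2 and 38.7 CPM in wt_284, wt_290, wt_310 and wt_312, and 46.8, 31.0 and 48.0 CPM in ko_306, ko_314 and ko_320. The groups overlapped, with ko_314 the lowest of all libraries and the other KO libraries between wt_312 and wt_310. The means were 48.8 ± 7.44 CPM (SD, n = 4) for WT and 42.0 ± 9.49 CPM (SD, n = 3) for KO. The fitted log2 fold change was -0.21 ± 0.22 (SE), and it went to -0.02 without ko_314.

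Fxyd5, which encodes dysadherin, a regulator that binds the pump and is known for weakening adhesion between cells, had 139, 100.2, 89.1 and 105 CPM in wt_284, wt_290, wt_310 and wt_312. The KO libraries ko_306, ko_314 and ko_320 had 103, 125 and 118 CPM, all between the lowest and the highest WT library. The means were 108 ± 21.6 CPM (SD, n = 4) for WT and 115 ± 11.6 CPM (SD, n = 3) for KO. The fitted log2 fold change was 0.09 ± 0.18 (SE), and 0.23 ± 0.16 (SE) without wt_284.

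Atp1b1 and Atp1b2 thus had no overlap between the genotypes, with every KO library below every WT library, which held for 2 of the 4 members and for 2.43% of the 15372 genes tested (373 genes). As the members were chosen on this pattern, nothing is read from that share. In the edgeR quasi-likelihood fit across all genes 0 of the 4 passed an adjusted p of 0.05 in either direction. Of all genes tested, 0.00651% passed as lower in KO (1 gene, Emcn) and 0% as higher. The adjusted p of each of the 4 was 0.992, and 2 of them had an unadjusted p under 0.05, beside 503 of the 15372 genes tested. DESeq2 on the same genes passed Atp1b2 (adjusted p 0.0126) and Atp1b1 (adjusted p 0.0426) as lower, among 0.0655% of genes, and edgeR without the filter on low counts passed both (adjusted p 0.00314 and 0.0265), among 0.256% of genes.

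The scarce subunits made up a different part of the beta subunit transcripts in the libraries of the different genotypes. Per kilobase of exon, Atp1b3 accounted for 69.6% of the 3 beta transcripts in wt_284 and for 86.8% to 89.8% in wt_290, wt_310 and wt_312, against 97.4% to 98.9% in KO. Atp1b1 made up 19.2% of the sum in wt_284, 6.33% to 8.33% elsewhere in WT and 0.813% to 2.19% in KO. Atp1b2 made up 11.2% of it in wt_284, 1.92% to 6.89% elsewhere in WT and at most 0.523% in KO. The summed beta level ranged from 18.0 to 32.2 CPM per kilobase for WT and from 13.3 to 20.3 for KO, so the groups overlapped. These shares use the same contrast that the members were chosen on and are descriptions.

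**Figure D2:**
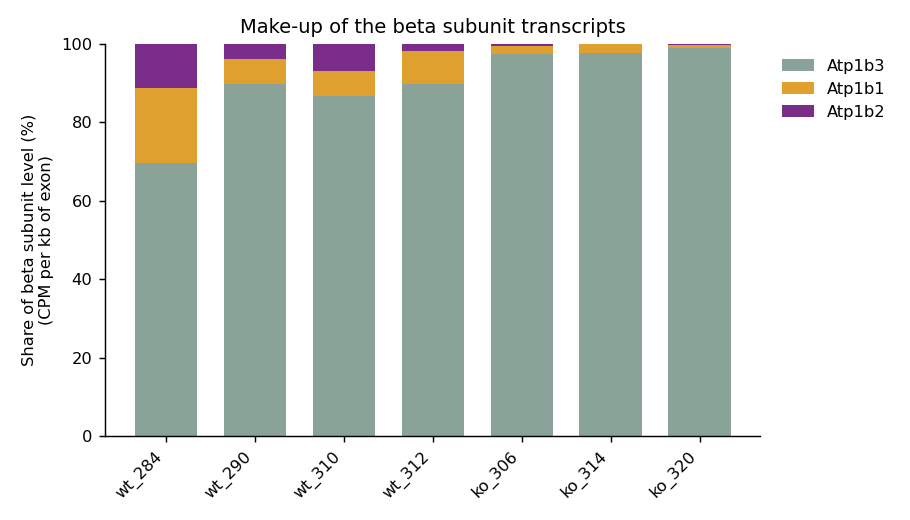
Share of Atp1b3, Atp1b1 and Atp1b2 in the summed level of the 3 beta subunit transcripts in each library (stacked bars, %, from CPM per kilobase of exon). Atp1b3 fills 69.6% of the bar of wt_284, 86.8% to 89.8% of the bars of wt_290, wt_310 and wt_312 and 97.4% to 98.9% in KO.

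Fxyd5 was the main FXYD transcript of these cells. The 6 other FXYD genes, which encode regulators better known from kidney, muscle, heart and brain, were too low to be tested, and their summed level was at most 1.12 CPM in any library. Fxyd1, which encodes phospholemman, had at most 0.775 CPM, and Fxyd3 held no count.

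Pumps, carriers and channels that share the work of ion balance showed no call. Of 5 tested pumps related to the sodium pump 4 had negative values and 0 passed. Their median log2 fold change was -0.25 (-0.07 when wt_284 was left out), beside -0.02 over all genes tested. Over all genes tested 52.4% had negative values, the background for this list and those that follow. Atp2c1, a calcium and manganese pump of the Golgi, had -0.51 ± 0.25 (SE), Atp2a3, a calcium pump of the endoplasmic reticulum in blood cells, had -0.28 ± 0.16, and Atp2b1, a calcium pump of the plasma membrane, had -0.25 ± 0.19. Without wt_284 Atp2c1 went to -0.25 and Atp2b1 to -0.06. The hydrogen and potassium pump genes Atp4b and Atp12a held no count.

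Sodium-coupled carriers, which spend the gradient that the pump builds, had a median of -0.10, with 9 of 14 tested members negative and 0 passing. Slc6a6, the taurine carrier, had -0.40 ± 0.16 (SE), Slc38a2, a carrier of neutral amino acids, had -0.31 ± 0.15, and Slc12a2, the sodium, potassium and chloride cotransporter, had 0.295 ± 0.17. Without wt_284 the median was -0.03, with 7 of 14 negative. In edgeR 1 member had an unadjusted p under 0.05, and 0 were passed by DESeq2 or without the filter.

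Potassium and chloride routes, which let out the potassium that the pump brings in, had a median of -0.21, with 11 of 16 tested members negative and 0 passing. Kcnj2, an inward rectifier potassium channel, had 24.4 CPM in wt_284, 3.40 to 4.50 CPM elsewhere in WT and 1.66 to 3.27 CPM in KO. Its log2 fold change was -1.91 ± 0.77 (SE), and -0.71 ± 0.79 without wt_284. Like Atp1b1 it was high in wt_284, and its KO libraries all lay below its WT libraries, but the remaining WT libraries lay nearer to KO. Slc12a9, a member of the cation and chloride cotransporter family, had -0.88 ± 0.52, and Kcna3, a voltage-gated potassium channel, had -0.54 ± 0.34.

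Regulators and anchors of the pump had a median of -0.25, with 8 of 11 tested members negative and 0 passing. Lyn, a kinase of the Src family, had -0.54 ± 0.25 (SE), or -0.22 ± 0.16 without wt_284. Ank1, the ankyrin of red cells, had -2.62 ± 1.25, or -1.49 ± 0.93 without wt_284, and Sgk1, a kinase that promotes sodium transport, had -1.62 ± 0.99, or -0.60 ± 1.05. In these 4 lists of transport genes 0 members were passed by DESeq2 or by edgeR without the filter. In edgeR 2 had an unadjusted p under 0.05, beside 503 of the 15372 genes tested.

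**Figure D3:**
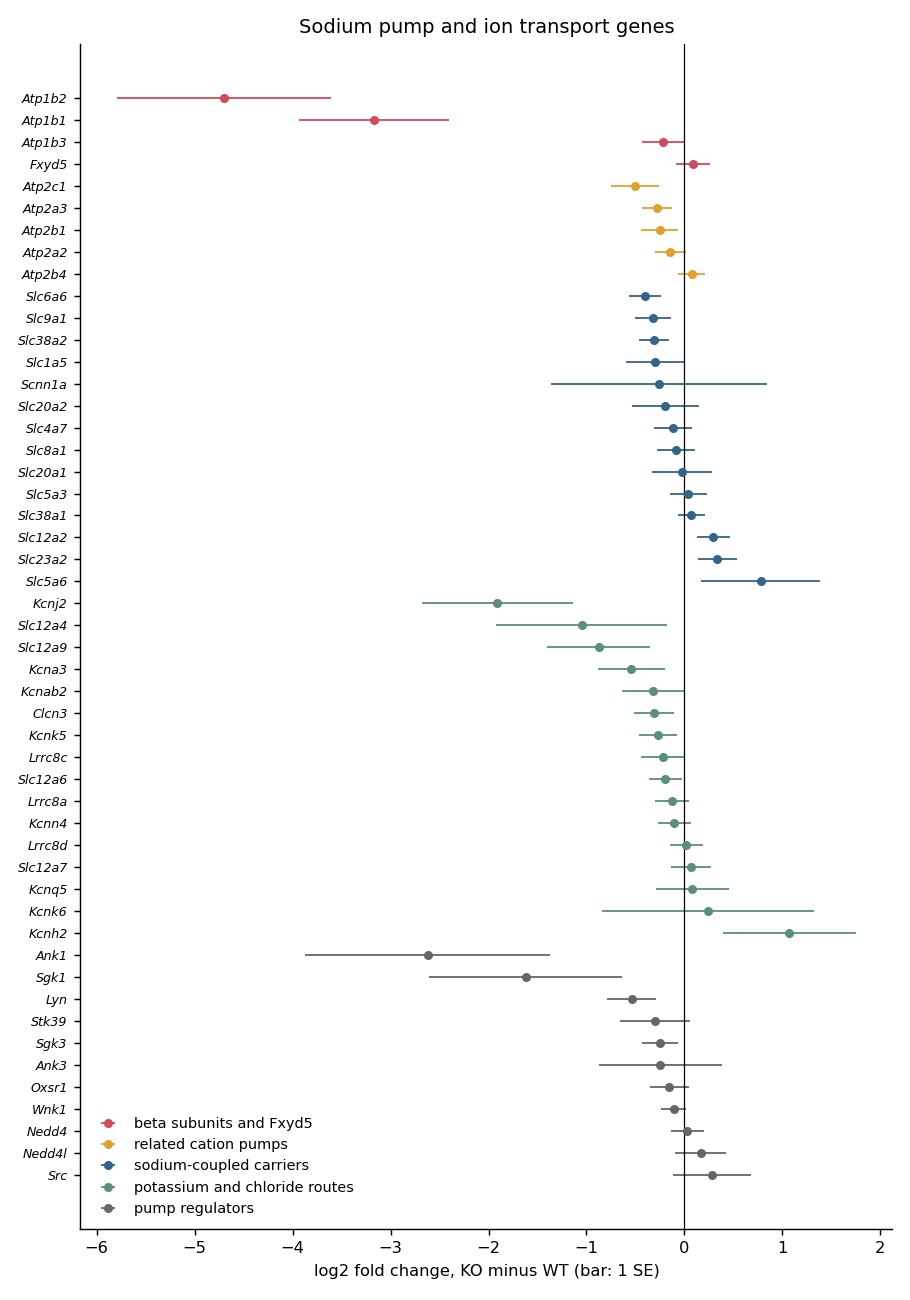
Log2 fold change (KO minus WT, horizontal axis) of every tested gene of the pump and ion transport lists (points, bars 1 SE, colours by list). Atp1b2 (-4.70) and Atp1b1 (-3.17) lie far to the left, and most other genes lie near 0.

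Transcripts of mature marrow cells, many of which carry the surface markers used for depletion, were highest in wt_284 in several lists. Atp1b1 and Atp1b2 were highest there too, and the part of these cells in the genotype difference was not tested. Outside wt_284, Atp1b1 stayed at 4.34 to 5.20 CPM in WT, while the neutrophil and monocyte sums ran from 249 to 1314 CPM. ko_306 lay above wt_312 in that sum but below it in Atp1b1 (1.29 against 4.62 CPM). Of the markers in that sum, Mpo (5.4 against 27.2 CPM) and Ly6c2 (1.98 against 2.95 CPM) were also lower in ko_306. The others were level or higher there. The comparison of ko_306 with wt_312 thus depends on the marker taken, and its bearing on the genotype difference was not tested. In bulk samples, fewer cells of a type and less RNA per cell cannot be told apart. The 15 neutrophil and monocyte markers, led by S100a9, Ngp and Ltf, summed to 15120, 1314, 1301 and 249 CPM in the WT libraries, with wt_284 first and wt_312 last. In KO the sum was 709.6 CPM in ko_306, 246.5 in ko_314 and 215 in ko_320. All 14 tested markers had negative log2 fold changes (52.4% of all genes tested), with a median of -4.00, or -1.70 without wt_284. By edgeR 0 of them passed, against 1 by DESeq2 (Mpo, adjusted p 0.0126) and 1 (Prtn3) without the filter. Like Atp1b1 and Atp1b2, Mpo had every KO library (5.4 to 8.9 CPM) below every WT library (27.2 to 1084 CPM). That held for 2 of the 14 markers, for 2 of 13 tested erythroid markers and for 2 of 6 tested basophil and mast cell markers. Over all genes tested it held for 2.43%. An unadjusted p under 0.05 in edgeR was seen for 2 of them, beside 503 of the 15372 genes tested. The sums overlapped between genotypes, as ko_306 lay above wt_312. Of the defining markers Csf1r and Cd14 were at 0 in wt_312, Ctsg and Cd14 in ko_314, and Ms4a3 and Ly6c2 in ko_320.

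Atp1b2 and the granule genes of eosinophils put the WT libraries in the same order, but the order was not particular to them. Erythroid sums gave it too, at 5382, 1626, 1417 and 647 CPM in wt_284, wt_310, wt_290 and wt_312. So did the sums of the B cell and of the T and NK cell markers. The neutrophil and monocyte, megakaryocyte, dendritic cell, and endothelial and stromal sums gave other orders. The basophil and mast cell list of 9 genes also holds Prg2 and Epx, which encode proteins of eosinophil granules. Its sum was 784 CPM in wt_284, then 221 in wt_310, 108 in wt_290 and 8.86 in wt_312. All 6 tested genes had negative log2 fold changes (median -3.77, or -2.19 for the 4 tested without wt_284). Of them 0 passed by edgeR, 0 by DESeq2 and 1 (Mcpt8) without the filter. In edgeR 3 had an unadjusted p under 0.05, beside 503 of the 15372 genes tested. The sum was 8.87 CPM in ko_306, 0 in ko_314 and 6.75 in ko_320. Prg2 alone had 548, 61.8, 152 and 0 CPM in the WT libraries, and 0.775, 0 and 0.637 CPM in KO. Epx was at 0 in wt_312, ko_306 and ko_314, Prss34 and Mcpt8 were at 0 in ko_314 and ko_320, and Cma1 and Tpsb2 were at 0 in every library.

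In the other marker lists 0 genes passed by edgeR or by DESeq2. In edgeR 2 had an unadjusted p under 0.05, beside 503 of the 15372 genes tested. Without the filter on low counts 1 gene passed in edgeR, Il7r of the T and NK cell list (adjusted p 0.0418), which held 134 counts in wt_284, 4 to 21 elsewhere in WT and 1 to 4 in KO. Erythroid markers, led by Car2, Hba-a2 and Hbb-bt, summed to 647 to 5382 CPM in WT and 690 to 888 CPM in KO, again with wt_284 at the top and wt_312 at the bottom of WT. All 13 had negative log2 fold changes (52.4% of all genes tested), with a median of -2.50, or -1.09 without wt_284. B cell markers, led by Cd79b, Jchain and Ebf1, summed to 136.5 CPM in wt_284 and to 11.2 to 17.6 CPM in each of the remaining libraries. Megakaryocyte markers (Itga2b, Itgb3 and Plek) gave 143 to 351 CPM in WT and 193 to 207 in KO, T and NK cell markers (Nkg7, Il7r and Klrb1c) 6.16 to 35.4 and 5.22 to 10.2, and dendritic cell markers (Flt3, Bst2 and Siglech) 34.2 to 56.6 and 34.7 to 43.3. Endothelial and stromal markers, led by Pecam1, Col1a2 and Kdr, gave 86.9 to 109 CPM in WT and 108 to 114 CPM in KO, and Cdh5, which marks endothelium, had at most 0.755 CPM.

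**Figure D4:**
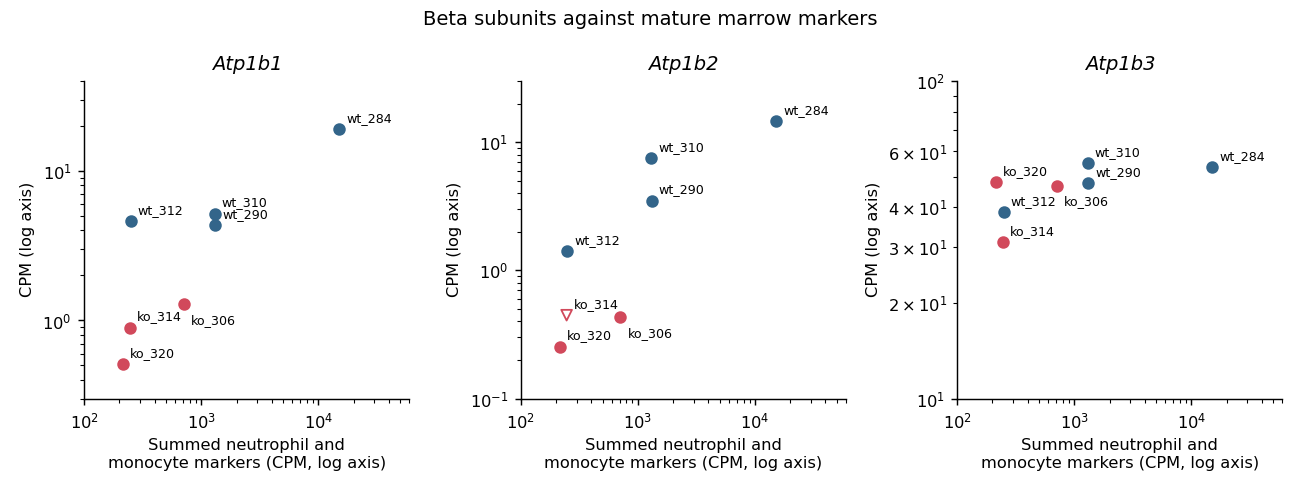
Level of Atp1b1, Atp1b2 and Atp1b3 (vertical, CPM, log axis) against the summed level of 15 neutrophil and monocyte markers (horizontal, CPM, log axis) in the 4 WT (blue) and 3 KO (red) libraries; the open triangle marks the limit that 0 counts allow. wt_284 has the highest marker sum (15120 CPM) and the highest Atp1b1 and Atp1b2, and the marker sums of wt_312 (249 CPM) and the KO libraries (215 to 709.6 CPM) overlap.

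The genes whose pattern over the 7 libraries was most like that of Atp1b1 and Atp1b2 were taken from the 13960 tested genes with a mean of at least 2 CPM, by Pearson's r of log2 CPM. These values describe 7 libraries that share the genotype difference and the high wt_284, and carry no p. For Atp1b1 the 5 most similar genes included Rmrp (r 0.982), which gives the RNA of the RNase MRP complex, Aatk (0.971), a kinase, Fam126a (0.971), and Mrpl58 (0.970), a release factor of the mitochondrial ribosome. Aatk shared both features of Atp1b1, with 13.7 CPM in wt_284, 1.68 to 2.06 CPM elsewhere in WT and 0.127 to 0.947 CPM in KO. Rmrp was much flatter, from 119 to 202 CPM in WT and from 69.9 to 98.7 CPM in KO. Without wt_284, 1 of the 5 (Mrpl58) remained among the 5 most similar genes, and Emcn itself entered with r 0.971 over 6 libraries.

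For Atp1b2 the 5 most similar genes included Nfatc1 (r 0.974), a transcription factor of calcium signalling, Alox15 (0.973), a lipoxygenase of eosinophils and macrophages, Ear1 (0.972), an eosinophil-associated ribonuclease, and Sirt1 (0.971), a protein deacetylase. Nfatc1 had 82.3 to 95.2 CPM in WT and 71.9 to 81.6 CPM in KO, a far narrower range than that of Atp1b2. Alox15 had 75.3, 7.08, 8.41 and 2.70 CPM in wt_284, wt_290, wt_310 and wt_312, and 0.149 to 0.689 CPM in KO. Ear1 had 99.6, 9.25, 14.5 and 1.28 CPM in the WT libraries and 0 counts in every KO library. Without wt_284, 2 of the 5 remained, Alox15 among them.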

How the data were processed

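RNA of LT-HSCs sorted from 4 WT and 3 KO mice was sequenced after a stranded total RNA library preparation for small inputs, per the labels' protocols (the molecule label reads polyA RNA). The authors deposited estimated counts per gene as whole numbers, without scaling. Cutadapt and Salmon appear, with no version, in the submitters' processing notes. Annotation, build and gene-level summing are stated in no source used here. Reads of overlapping genes or shared sequence may be split by such estimates.

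KO was set against WT by edgeR's quasi-likelihood test (version 4.0.16, robust, under R 4.3.3) after filterByExpr and TMM scaling. A gene passed at a Benjamini-Hochberg adjusted p under 0.05, and 15372 of 29739 genes with a count were tested. The standard error is the log2 fold change divided by the root of F. The fit was tested on simulated data. Exon lengths are the union of annotated exons in GENCODE M21. A 0 allows up to 3 counts.

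Alternatives were RLE normalization, no filter, DESeq2 1.42.0 and leaving out each mouse. Members and lists were chosen with earlier results of these data known. Named genes are the members, Emcn, up to 4 passing genes of each transport list filled to 3 by p, the 3 highest of each marker list, and the 5 most similar to Atp1b1 and Atp1b2. Further genes were named after their values were seen, and some genes that this rule selects are not reported here. Each library is 1 mouse, and no batch, litter or sort day is labelled. The p-values set the genotype difference against the spread between libraries, in which mice and technical differences cannot be told apart. The KO mice were littermates of WT mice, but with no litter labelled no pairing by litter could be fitted.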

Additional observations from a re-analysis of the deposited data

Results flagged for a closer look

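In 3 of 13 quantities (the 4 members and 9 summed marker lists) 1 WT library lay far from the other 3, by a gap above Dixon's 95% critical value as a share of the WT range; chance alone gives about 1 in 20, and the 3 KO libraries are too few to be examined this way. In each case it was wt_284. Atp1b1 had 19.03 CPM there against 4.34 to 5.20 CPM elsewhere in WT. The neutrophil and monocyte markers summed to 15120 CPM against 249 to 1314 CPM, and the B cell markers to 136.5 CPM against 11.2 to 17.6 CPM. Atp1b2, Atp1b3 and Fxyd5 stayed under that value.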

How the results depend on the processing

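The log2 fold changes of the 4 members kept their direction in all 10 alternatives each. For Atp1b1 and Atp1b2 this could hardly come out otherwise, as they were chosen for being lower in every KO library, and nothing is read from it. Leaving out 1 mouse gave -3.56 to -2.36 for Atp1b1, -5.51 to -4.00 for Atp1b2, -0.32 to -0.02 for Atp1b3 and 0.0041 to 0.23 for Fxyd5, and none passed in those fits. Atp1b1 and Atp1b2 passed with DESeq2 and with no filter only. Over all genes, 1 was lower in KO, against 76 with no filter, 10 with DESeq2 and 1 to 3 without 1 mouse (2 without wt_284, 3 without ko_306). None was higher, against 5 with no filter, 0 with DESeq2 and 0 to 1 without 1 mouse (1 without wt_284, wt_290 or ko_314). Genes with every KO library below every WT library numbered 373, against 521 to 1481 without 1 mouse, where fewer libraries must be ordered. Of the 5 genes most similar to Atp1b1 and to Atp1b2, 1 and 2 remained without wt_284. In an alternative chosen after seeing the data, leaving out wt_284 moved the median log2 fold change of the B cell markers from -2.08 to 0.02646, with 2 of 4 genes still tested. The KO counts of Atp1b1 (4 to 15) and Atp1b2 (0 to 5) limit how finely KO levels can be ordered. No paired analysis was possible because the litter of each mouse is not labelled.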
